A study of Mus musculus with 2 samples.

Results

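The genes described here make, fold, modify, export, trim and cross-link procollagen. They comprise 41 genes, taken by listed mouse symbol and matched to the Ensembl gene identifiers of the deposited tables, out of 42462 mouse genes with an entry in the GENCODE M21 annotation. By role they are 4 subunits of prolyl 4-hydroxylase, 6 members of the prolyl 3-hydroxylase complexes, 5 lysyl hydroxylases and collagen galactosyltransferases, 4 chaperones and prolyl isomerases, 3 disulfide isomerases, 7 genes of the COPII coat and its collagen receptor, 2 membrane-bound transcription factors, 5 genes of propeptide cleavage and 5 lysyl oxidases.

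The study sequenced total RNA from facial prominence tissue of B6NCrl mouse embryos, taken at embryonic day 12.5, when the swellings that form the face are growing and fusing. There was 1 group with 2 biological replicates, each a pool of embryos of both sexes: 120 embryos in replicate 1 and 88 in replicate 2. Each library was made from 10 ng of RNA, with synthetic spike-in RNAs added. With no treatment and no second stage or tissue, the data give levels, proportions between genes and transcript makeup, and no contrast between conditions.

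Procollagen chains enter the endoplasmic reticulum (ER) as they are made. There, prolines and lysines are hydroxylated, some hydroxylysines receive sugars, disulfide bonds join the chains, and a triple helix zips up from the C-terminal end. The collagen-specific chaperone Hsp47 binds the helix in the ER, and procollagen leaves in enlarged COPII carriers. Outside the cell, proteases remove the propeptides and lysyl oxidases cross-link the fibrils. Loss of many of these enzymes causes brittle bone or connective tissue disease, and several of those diseases affect the palate and the face.

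Levels are given in TPM, a share of all transcripts in a library, which divides reads by transcript length and so allows genes to be compared. Values with ± are the mean and SD over the 2 libraries (n = 2). The libraries held 27890681 and 39969716 summed expected counts, and spike-ins took 6.88% and 7.57% of the TPM total. Cranial mesenchyme markers were all present (Prrx1, Pdgfra, Twist1, Msx1 and Alx1, summing to 745 and 771 TPM), as were 5 of 5 markers each of cartilage, surface epithelium, skeletal muscle, endothelium, red blood cells, neurons and macrophages. Of 5 bone markers, Runx2, Sp7 and Alpl were at 1 TPM or more in both libraries, while the matrix genes Ibsp (0.38 and 0.53 TPM) and Bglap (0.34 and 0 TPM) were near 0. In such bulk tissue, fewer cells of a type and less RNA per cell cannot be told apart.

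As a set, the collagen-processing genes were abundant. Their median level was 48.1 TPM, against 5.24 TPM for all 21474 protein-coding genes. All 41 had at least 3 expected counts in both libraries, and 40 had at least 100. In both libraries, 40 members reached 1 TPM, where 61.8% of protein-coding genes did. A level of 10 TPM was reached by 33 members, where the background was 41.7%. The level of 100 TPM was reached by 10 members, against 7.39% of protein-coding genes. Many protein-coding genes were not detected. Among the 16525 with at least 3 expected counts in a library, the median was 13.1 TPM. Of these, 80.3% reached 1 TPM, 54.1% reached 10 TPM and 9.60% reached 100 TPM. Together the 41 members summed to 5037 and 5116 TPM, and the 5 highest (Serpinh1, Pdia3, P4hb, Pdia6 and Ppib) held 60.1% of that sum. Above the protein-coding median lay 35 members, and 13 were in its top 10%. The members below the median were Adamts3, P3h2, Creb3l1, Colgalt2, Adamts14 and Loxl4.

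**Figure D1:**
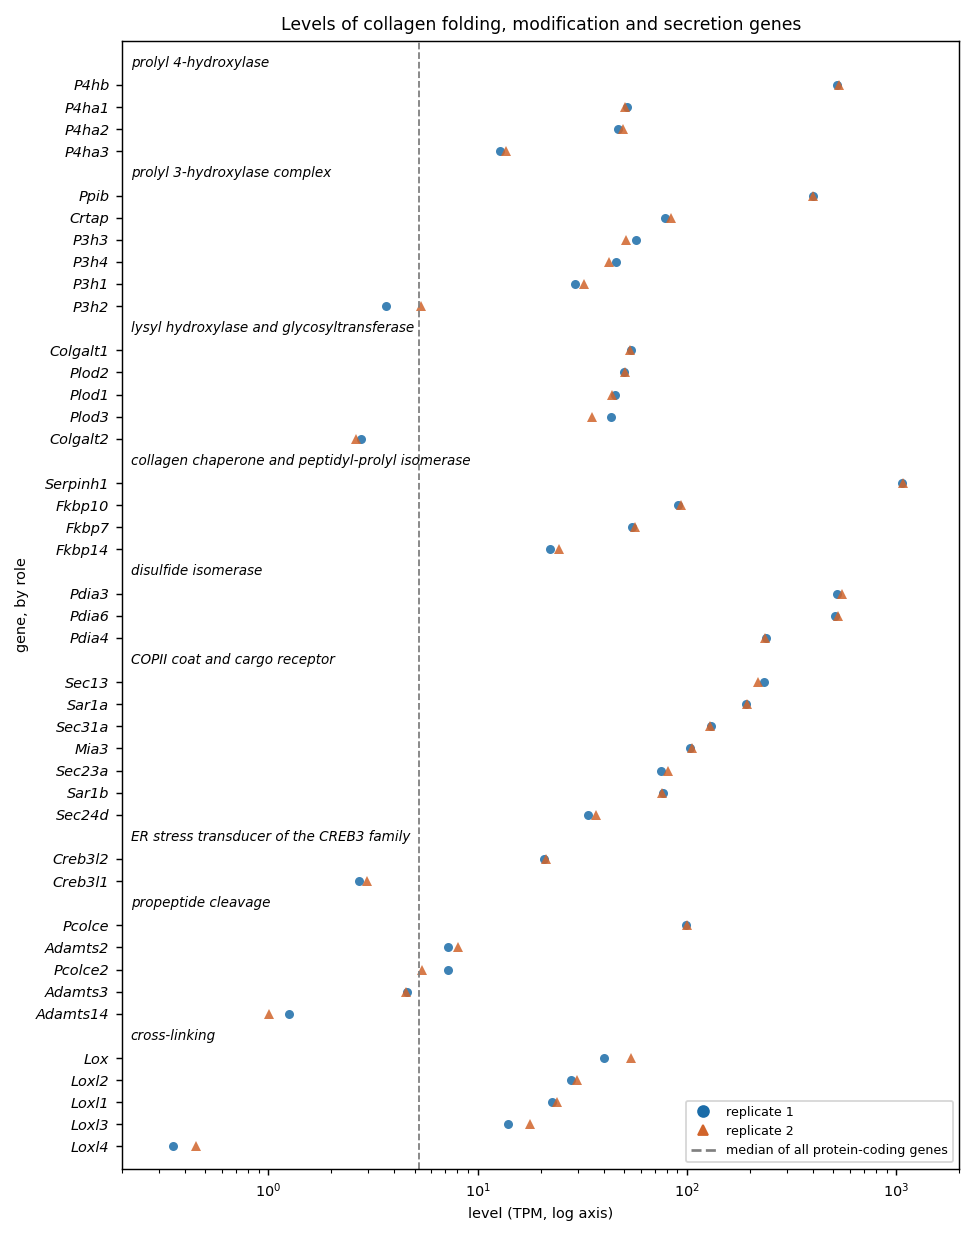
TPM of each gene (log axis) in replicate 1 (circles) and replicate 2 (triangles), grouped by role, with the median of all protein-coding genes as a dashed line. Serpinh1 is the highest at 1072 TPM and Loxl4 the lowest at 0.400 TPM, and 35 of the 41 genes lie right of the line.

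Prolyl 4-hydroxylase puts the hydroxyl groups on prolines that make the collagen helix stable at body temperature. Its catalytic α subunits are encoded by P4ha1, P4ha2 and P4ha3, and each pairs with the β subunit, encoded by P4hb, which is also an abundant disulfide isomerase in its own right. P4hb (chr11:120560298-120573253, minus strand, GRCm38) stood at 523 and 531 TPM, above 99.0% of protein-coding genes. P4ha1 had 51.8 and 50.5 TPM, P4ha2 had 47.0 and 49.2 TPM, and P4ha3 had 12.8 and 13.7 TPM. The first 2 α subunits were thus close to each other, with a log2 ratio of 0.089 ± 0.072, and both lay above P4ha3, by 3.86-fold for P4ha1 (log2 ratio 1.95 ± 0.094) and 3.63-fold for P4ha2 (1.86 ± 0.022). P4hb exceeded the sum of the 3 α subunits 4.68-fold, with a log2 ratio of 2.23 in each library.

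P4ha1 and P4ha2 each carry a pair of coding exons of which annotated transcripts use one or the other, so the data also show which form of the enzyme's mRNA the tissue held. In P4ha1 (plus strand, GRCm38), the first exon of the pair lies at chr10:59354340-59354410 and the second at chr10:59355350-59355420. Both have 71 bases, and 42 of them (59.2%) are identical. They are printed to show how far this choice of exon changes the mRNA. Capitals mark the 29 bases that differ, from GENCODE M21 transcripts.
P4ha1 first exon: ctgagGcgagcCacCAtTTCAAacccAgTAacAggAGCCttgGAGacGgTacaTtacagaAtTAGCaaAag
P4ha1 second exon: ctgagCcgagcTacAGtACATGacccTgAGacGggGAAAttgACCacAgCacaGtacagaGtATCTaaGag
Among complete coding transcripts, the second exon held 88.6% and 86.3% of P4ha1's TPM in replicates 1 and 2, and the first held 11.4% and 13.7%. The form with the second exon was therefore the main one in both pools. Another P4ha1 exon of 240 bases (chr10:59348181-59348420) was included in 87.7% and 91.8%. The transcript that skips it had 254 and 234 expected counts. The authors' posterior SD of that count, a measure of its uncertainty, was 72.9 and 140.

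The P4ha2 pair has a first alternative exon of 60 bases at chr11:54126238-54126297 and a second of 66 bases at chr11:54126346-54126411 (plus strand, GRCm38). Both exons are shown in capitals between the 15 flanking bases they share on each side.
P4ha2 60-base exon: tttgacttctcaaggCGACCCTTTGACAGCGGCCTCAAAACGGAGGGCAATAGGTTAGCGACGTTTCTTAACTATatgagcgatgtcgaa
P4ha2 66-base exon: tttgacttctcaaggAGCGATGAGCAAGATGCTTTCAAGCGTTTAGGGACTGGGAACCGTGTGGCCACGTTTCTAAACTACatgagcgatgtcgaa
The 60-base exon held 66.4% and 68.4% of the TPM of complete coding transcripts (67.4 ± 1.42%), and the 66-base exon held 33.6% and 31.6%. Both P4ha2 forms were thus substantial. In P4ha3, annotated transcripts other than complete mRNAs made up much of the level: a retained-intron transcript held 51.6% and 39.8% of its TPM, and its complete coding transcript stood at 4.98 and 6.82 TPM. With complete coding transcripts only, the log2 ratios to P4ha3 were larger, at 3.13 for P4ha1 and 2.72 for P4ha2.

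The prolyl 3-hydroxylases modify a few prolines of the collagen helix. P3h1 does so in a complex with the adaptor Crtap and the prolyl isomerase cyclophilin B, the product of Ppib, which speeds helix folding. P3h1 had 29.1 and 32.3 TPM, Crtap 78.7 and 84.0 TPM, and Ppib 400.45 and 400.04 TPM. The 3 partners thus spanned a wide range: Ppib lay 4.92-fold above Crtap (log2 ratio of Crtap over Ppib -2.30 ± 0.068), and Crtap lay 2.66-fold above P3h1. Ppib shares 24.96% of its exon bases in M21 (825 of 3305) with Snx22 on the other strand, which had 6.47 and 5.53 TPM. The deposited Ppib transcript has 960 bases, so this is not a share of the sequence that was counted.

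P3h3 and P3h4 belong to another complex, in which they assist the lysyl hydroxylase Plod1. P3h3 had 57.3 and 51.0 TPM and P3h4 45.9 and 42.4 TPM, a log2 ratio of 0.29 ± 0.038 that turned to -0.33 with complete coding transcripts only. Plod1 itself had 45.3 and 43.6 TPM, so the 3 partners of this complex lay close together. P3h2, the prolyl 3-hydroxylase linked to basement membrane collagen, had only 3.63 and 5.34 TPM. It was 6.95-fold below P3h1, and it shares 28.4% of its M21 exon bases with the antisense gene Gm4524. Within the family of P3h1, P3h2 and P3h3, the shares of summed TPM were 34.3 ± 2.91%, 5.03 ± 1.41% and 60.6 ± 4.32%. Retained-intron transcripts made up 33.2% and 29.2% of P3h3, whose complete coding transcript stood at 35.7 and 33.9 TPM.

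Lysyl hydroxylases set the sites of sugar attachment and the chemistry of the later cross-links. Plod1 acts mainly on the helix, Plod2 on the telopeptides at the chain ends, and Plod3 can also add sugars. Plod2 had 50.2 and 50.3 TPM, and Plod3 had 43.5 and 35.0 TPM. At the gene level the 3 genes were close: none of their pairwise log2 ratios passed 1, and the largest was that of Plod2 over Plod3, at 0.36 ± 0.23. With complete coding transcripts only, Plod3 was lower, at 27.9 and 28.3 TPM. Plod1 then had 43.1 and 42.4 TPM and Plod2 41.5 and 41.8 TPM. The galactosyltransferases were much further apart. Colgalt1 had 54.3 and 53.4 TPM, while Colgalt2 had 2.78 and 2.63 TPM, so that Colgalt1 held 95.2 ± 0.130% of the pair and exceeded Colgalt2 19.9-fold.

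Plod2 is known for a short alternative exon that distinguishes its long and short proteins. It lies at chr9:92601985-92602047 (plus strand, GRCm38). Its 63 bases, in capitals, keep the reading frame, and 15 bases of the neighbouring exons stand on each side.
Plod2 63-base exon: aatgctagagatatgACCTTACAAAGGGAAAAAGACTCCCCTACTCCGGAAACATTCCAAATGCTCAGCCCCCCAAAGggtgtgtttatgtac
Transcripts with the exon stood at 24.2 and 27.0 TPM, and the transcript that skips it at 17.3 and 14.8 TPM. The inclusion share was 58.2% and 64.6% (61.4 ± 4.47%). By these estimates the long form was the larger in both libraries, with the short form well represented. In replicate 1 the authors' posterior SD was 134 counts for each form, of 1506 counts with the exon and 1075 without it. In replicate 2 it was 136 of 2382 and 137 of 1301. A further 17.2% and 17.0% of Plod2's TPM lay in retained-intron transcripts.

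**Figure D2:**
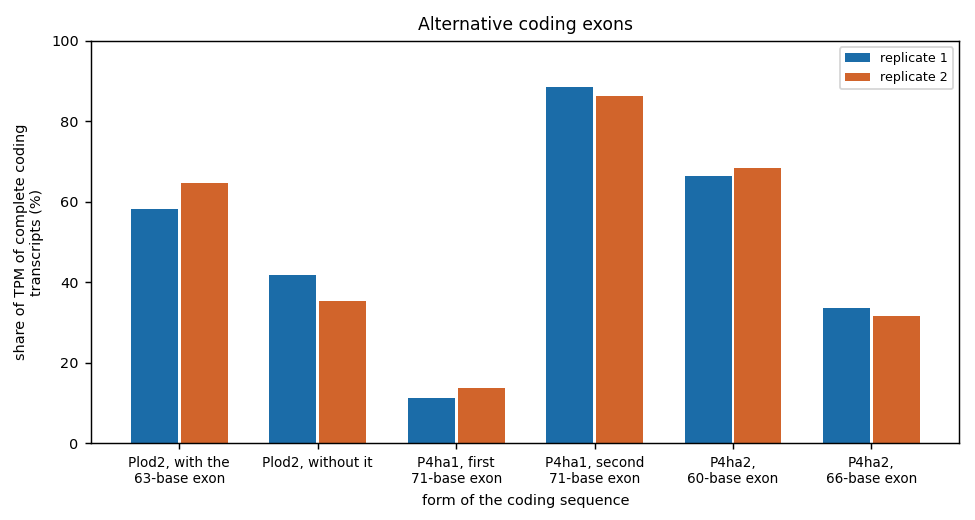
Share of the TPM of complete coding transcripts (%) held by each form of Plod2, P4ha1 and P4ha2, with 1 bar for each of the 2 libraries. The second 71-base exon of P4ha1 dominates at 88.6% and 86.3%, whereas Plod2 and P4ha2 hold both of their forms in quantity.

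Serpinh1 (chr7:99345376-99353239, minus strand, GRCm38), which encodes Hsp47, was the most abundant member. It stood at 1069 and 1075 TPM, above 99.7% of protein-coding genes and close to the level of the fibrillar collagen gene Col3a1 (1004 and 1002 TPM). The FK506-binding prolyl isomerases of the ER were lower. Fkbp10, which works with Plod2 on telopeptide hydroxylation, had 90.6 and 93.7 TPM, so that Serpinh1 exceeded it 11.6-fold. Fkbp7 had 54.4 and 56.4 TPM, and Fkbp14, whose loss causes a connective tissue disease with muscle weakness, had 22.1 and 24.4 TPM. Among Fkbp10, Fkbp7 and Fkbp14, Fkbp10 thus led with 54.0 ± 0.414% of their summed TPM, 3.97-fold above Fkbp14. Fkbp7 lay 2.39-fold above Fkbp14, an order that turns in counts not divided by length. Of the other ER folding factors, Fkbp9 (107 and 111 TPM) was above Fkbp10, and Fkbp11 (18.3 and 19.6 TPM) was below it. Plod2 and its partner Fkbp10 differed by less, at a log2 ratio of -0.87 ± 0.031.

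The disulfide isomerases form and correct the bonds that hold the procollagen chains together before the helix folds. Pdia3, the partner of the lectin chaperones calnexin and calreticulin, had 520 and 553 TPM. Pdia6 had 508 and 525 TPM, and Pdia4 had 238 and 237 TPM. Pdia3, Pdia6 and P4hb thus lay near one level, each with 28.4% to 29.5% of the TPM of these 4 isomerases, while Pdia4 held 13.1 ± 0.321%. The log2 ratio of Pdia3 over Pdia4 was 1.18 ± 0.066, but it was 0.70 among complete coding transcripts only, and that of Pdia3 over Pdia6 turned from 0.052 to -0.34. An annotated nonsense-mediated decay transcript held 27.3% and 29.0% of Pdia3's TPM.

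COPII carriers bud from the ER when Sar1 recruits the inner coat of Sec23 and Sec24 and then the outer cage of Sec13 and Sec31. Their 7 members here had a median of 104 TPM. Of the Sar1 GTPases, Sar1a had 191 and 192 TPM and Sar1b 77.1 and 75.6 TPM, a 2.51-fold difference. Sec23a, mutated in a human craniofacial disorder with late-closing skull sutures, had 75.4 and 80.9 TPM. Its paralog Sec23b had 82.1 and 77.9 TPM, and their log2 ratio of -0.035 ± 0.12 changed sign between the libraries. With complete coding transcripts only, Sec23a led by a log2 ratio of 0.71. Sec24d, a cargo-binding subunit whose loss disturbs craniofacial cartilage in fish, had 33.8 and 36.6 TPM, below Sec24c (61.5 and 61.5 TPM) by a log2 ratio of -0.80 ± 0.081. Sec13 had 232 and 219 TPM and Sec31a 130 and 129 TPM, a log2 ratio of 0.80 ± 0.055 that was 1.44 with complete coding transcripts only.

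Mia3 encodes TANGO1, the receptor that loads bulky procollagen at ER exit sites, and pairs with the Mia2 product there. Its gene-level value was 103 and 105 TPM, 2.15-fold above Mia2, but that value rested mostly on transcripts annotated as fragments. The only complete coding transcript of Mia3 in the annotation (2961 bases) stood at 10.4 and 13.9 TPM, or 10.1% and 13.2% of the gene. Transcripts cut off at an end, of 829, 259, 1904 and 566 bases, held nearly all the rest. No longer Mia3 transcript was annotated, so long and short forms could not be separated. The value of the 2961-base transcript is therefore not the level of a long Mia3 mRNA. With complete coding transcripts only, the ratio to Mia2 turned to a log2 value of -1.73. The order of these 2 receptors is therefore not set by these tables. Sec31a likewise had only 59.98% and 61.0% of its TPM in its complete coding transcript.

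**Figure D3:**
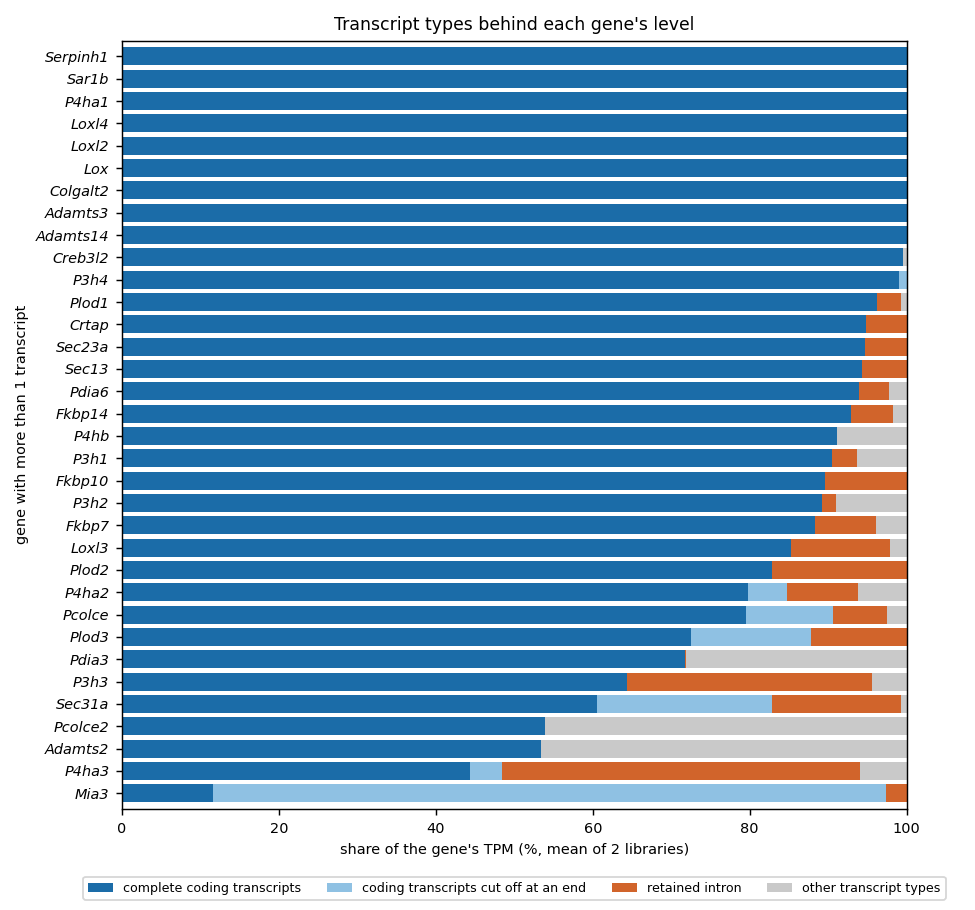
Share of each gene's TPM (%, mean of the 2 libraries) in complete coding transcripts, coding transcripts cut off at an end, retained-intron transcripts and other types, for genes with more than 1 transcript. Mia3 is the one with the smallest complete coding share, and P4ha3, Adamts2 and Pcolce2 also hold much of their TPM elsewhere.

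Of the transcripts as a whole, the tables listed 170 for the 41 genes, and 7 genes had 1 transcript each. Among the 34 genes with more than 1, the same transcript led in both libraries with over 50% of the gene's TPM in 29. Of the 27 that also had a mean of 10 TPM or more, 23 (85.2%) had such a transcript, against 70% of the 6881 protein-coding genes of that kind. The exceptions among all members were P4ha2, P4ha3, Plod2, Mia3 and Pcolce2. Complete coding transcripts held 90% or more in both libraries in 14 of the same 27 (51.9%), against 38.9% of the 6881. Serpinh1, P4ha1, Lox and Loxl2 were among them, each at 100%.

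Creb3l1 and Creb3l2 encode transcription factors held in the ER membrane, released by cleavage, and known to switch on secretory and collagen genes in bone and cartilage cells. Creb3l2, the one linked to chondrocytes and to Sec23a, had 20.6 and 21.1 TPM. Creb3l1, the one linked to osteoblasts, had 2.72 and 2.97 TPM. Creb3l2 thus exceeded Creb3l1 7.35-fold and held 88.0 ± 0.474% of the pair. Of the cartilage markers, Col2a1 stood at 361 and 313 TPM, Sox9 at 114 and 123 TPM and Col9a1 at 111 and 109 TPM. Acan (4.34 and 2.67 TPM) and Matn1 (5.78 and 3.44 TPM) were low. Of the bone markers, Runx2 had 25.8 and 26.2 TPM, Alpl 19.1 and 19.6 TPM and Sp7 7.06 and 7.69 TPM. Ibsp and Bglap were near 0, as given above. The part of these markers in this ratio was not tested.

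Promoters were searched for 2 motifs of the ER stress response, in windows of 300 bases (250 before to 50 after the start, RefSeq, GRCm38.p6) and on both strands. The search covered 32851 promoters, among them those of the 31 members with an entry. Percentages are of promoter entries, whereas members are counted as genes, so the 2 are not like units. The ER stress response element, read as CCAAT and CCACG with 9 bases between them, was found in 39 promoters (0.119%), of which 1 was a member, Pdia6. TGACGTGG, a CRE-like element, was found in 222 (0.676%), of which 3 were members: Sec24d, Adamts3 and Sec23a. The motifs do not overlap in these promoters, and a match is a run of letters, not a binding site. The stretches are shown on the gene's strand with the motif in capitals, and the motif's first base lay 98 bases before the start in Pdia6, 26 before it in Sec24d, 225 before it in Adamts3 and 6 past it in Sec23a.
Pdia6, chr12:17266431-17266569, plus strand: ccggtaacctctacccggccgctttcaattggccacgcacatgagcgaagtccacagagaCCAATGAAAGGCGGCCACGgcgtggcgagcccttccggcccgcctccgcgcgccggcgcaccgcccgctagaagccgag
Sec24d, chr3:123267410-123267495, plus strand: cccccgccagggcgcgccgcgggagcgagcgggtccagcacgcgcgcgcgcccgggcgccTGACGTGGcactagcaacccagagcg
Adamts3, chr5:89883492-89883584, minus strand: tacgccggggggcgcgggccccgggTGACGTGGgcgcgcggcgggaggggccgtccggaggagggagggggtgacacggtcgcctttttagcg
Sec23a, chr12:59011993-59012022, minus strand: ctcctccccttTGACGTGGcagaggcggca
The members with a match ranged widely in level, from Adamts3 at 4.56 TPM to Pdia6 at 517 TPM.

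Once outside the cell, procollagen loses its N-propeptide to Adamts2, Adamts3 or Adamts14 and its C-propeptide to Bmp1, whose action Pcolce and Pcolce2 enhance. The N-proteinases were low. Adamts2 had 7.21 and 8.08 TPM, Adamts3 had 4.58 and 4.53 TPM, and Adamts14 had 1.26 and 1.01 TPM. Their sum was 13.3 ± 0.403 TPM. Adamts2 held 57.3 ± 2.88% of it and lay 6.77-fold above Adamts14 (log2 ratio 2.76 ± 0.34), while its log2 ratio to Adamts3 was 0.74 ± 0.13. A noncoding processed transcript held 46.5% and 46.7% of the TPM of Adamts2, whose coding transcript stood at 3.85 and 4.31 TPM. With complete coding transcripts only, the log2 ratio of Adamts2 was -0.16 to Adamts3, so its lead was lost, and 1.85 to Adamts14.

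The C-propeptide side was far better represented. Pcolce had 98.7 and 100.21 TPM and Bmp1 had 68.2 and 65.9 TPM, a log2 ratio of 0.57 ± 0.050. Pcolce2 had 7.21 and 5.42 TPM, so that Pcolce exceeded it 15.9-fold and held 94.0 ± 1.18% of the pair. Each of the pairs Colgalt, Creb3l and Pcolce therefore had 1 gene with 88.0% or more of the sum, whereas the Plod and P4ha families were spread over several genes.

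Lysyl oxidases oxidize lysines of collagen and elastin to start cross-linking. Lox (chromosome 18, minus strand) had 40.0 TPM in replicate 1 and 53.8 TPM in replicate 2. Loxl2 had 27.9 and 29.7 TPM, Loxl1, which is linked to elastic fibres, had 22.6 and 24.0 TPM, and Loxl3, whose loss in mice causes cleft palate, had 13.9 and 17.8 TPM. Loxl4 was near the floor, at 0.35 and 0.45 TPM from 22 and 41 expected counts, with exact Poisson 95% intervals of 0.219 to 0.530 and 0.323 to 0.610 TPM. These intervals cover counting error only, and they overlap. Lox therefore led, with 40.5 ± 3.29% of the family sum, and exceeded Loxl3 2.95-fold. Over Loxl4 its log2 ratio was 6.87 ± 0.048, but 5.94 by the posterior mean TPM and 5.08 with 1 TPM added to both, so the size of that lead is not well set. Its lead over Loxl1 (log2 ratio 1.00 ± 0.24) fell just short of 1 on the mean, with 0.82 in replicate 1 and 1.17 in replicate 2. Its log2 ratio to Loxl2 was 0.69 ± 0.24.

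**Figure D4:**
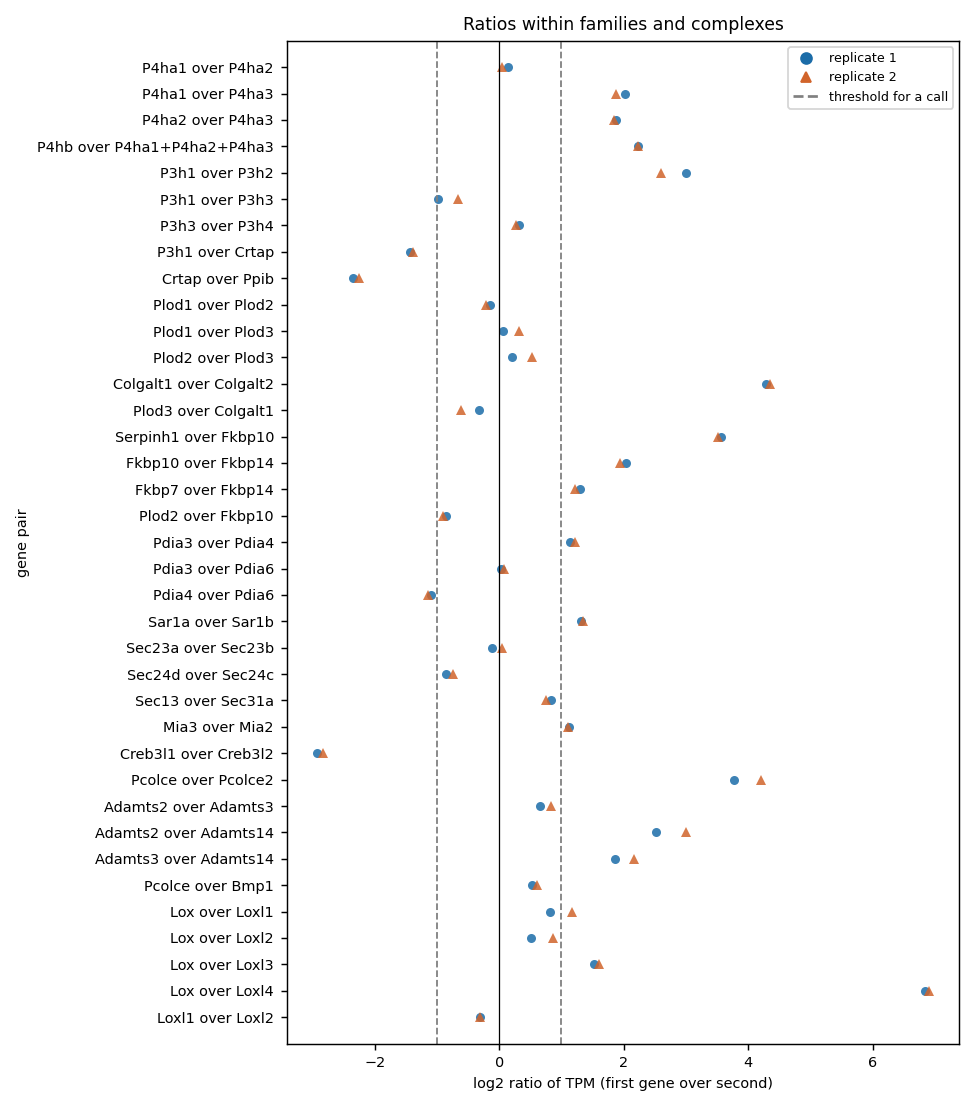
Log2 ratio of TPM (first gene over second) for 37 pairs in replicate 1 (circles) and replicate 2 (triangles), with dashed lines at -1 and 1. The means of 20 pairs lie beyond the lines with the same sign in both libraries, from Lox over Loxl4 at 6.87 down to Creb3l1 over Creb3l2 at -2.88.

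Of the 37 ratios fixed for these families and complexes, 20 passed 1 in size with the same sign in both libraries and 17 did not. The mean ratio exceeded its SD between libraries in size for every pair but Sec23a over Sec23b.

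The 2 pools gave near-equal levels for most of the genes. Of the 33 with a mean of 10 TPM or more, 25 (75.8%) had an SD under 5% of the mean, against 65.9% of the 9111 protein-coding genes at that level. On the log2(TPM + 1) scale, the difference of replicate 2 minus replicate 1 had a median of 0.034 and ran from -0.35 to 0.45. None of the 41 differed by more than 1, against 0.121% of those 9111 genes. Of the 33 members at that level, 75.8% differed by less than 0.1, against 66.4% of the background genes. With 1 library on each side there is no test of these differences.

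The genes with an SD over 10% of the mean were P3h2, Lox, Pcolce2, Loxl4, Loxl3, Adamts14 and Plod3. Lox was 1.35-fold higher in replicate 2 (2896 and 5559 expected counts), a log2 difference of 0.42 that 1.38% of background genes exceeded in size. Both Lox transcripts were higher there: Lox-202 had 29.8 and 41.2 TPM and Lox-201 had 10.2 and 12.6 TPM. P3h2 was 1.47-fold higher in replicate 2, from 189 and 366 expected counts. In Plod3, Loxl3 and Pcolce2, the difference lay mostly outside the complete coding transcript. The complete coding transcript Plod3-201 was level at 27.9 and 28.3 TPM, and the lower value in replicate 2 lay in Plod3-202, a 600-base coding fragment with 9.10 and 3.43 TPM, and in a 932-base retained-intron transcript with 3.95 and 1.39 TPM. For Loxl3, the coding transcript had 13.0 and 13.8 TPM and the retained-intron transcript Loxl3-204 had 0.96 and 3.24 TPM. Pcolce2, at 0.752 of its replicate 1 level in replicate 2, had 3.48 and 3.23 TPM in its coding transcript and 3.73 and 2.19 TPM in a 623-base processed transcript. Plod3 shares 11.7% of its exon bases with Znhit1 (106 and 94.97 TPM), and Loxl3 shares 11.6% with Htra2 (61.1 and 58.2 TPM), both on the other strand. Colgalt1 likewise shares 11.4% with Unc13a (2.33 and 1.58 TPM). These are shares of M21 exon bases, which for Colgalt1 number 4326, against 3179 bases in its deposited transcript. The labels do not state whether strand was kept, so they do not say how reads of shared bases were assigned. The authors' posterior SD was 0.34% and 0.29% of the count for Plod3 and 0.87% and 0.69% for Loxl3. For Colgalt1 it was 0.047% and 0.038%. The effect of the overlaps on these levels was not tested.

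**Figure D5:**
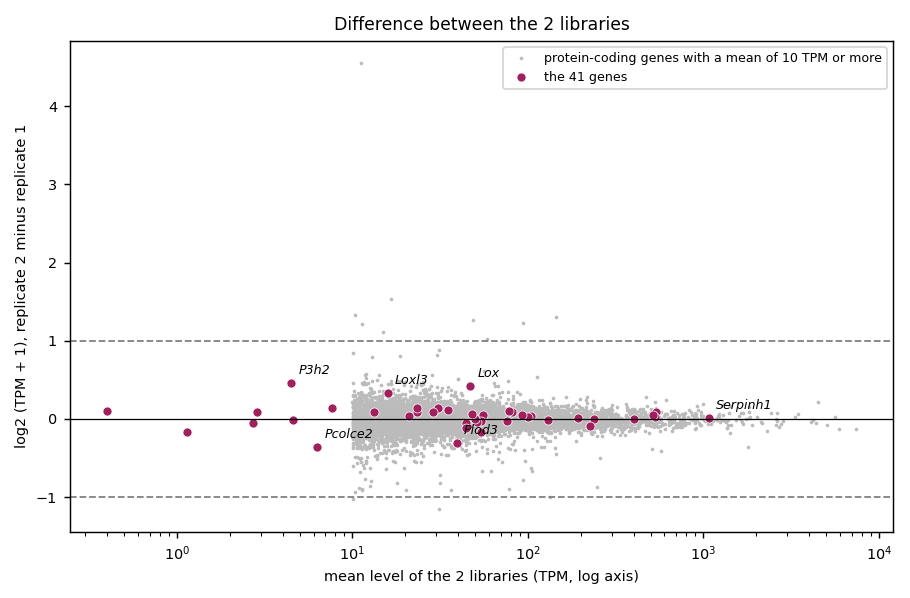
Difference in log2(TPM + 1), replicate 2 minus replicate 1, against the mean TPM (log axis) for the 41 genes (large points) and for protein-coding genes with a mean of 10 TPM or more (small points), with dashed lines at -1 and 1. All 41 lie between -0.35 and 0.45, and Lox and P3h2 are the highest.

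Markers of some cell types also differed between the pools. Skeletal muscle markers summed to 362 and 430 TPM, neuron markers to 490 and 368 TPM, cartilage markers to 596 and 551 TPM, and red blood cell markers to 16793 and 15390 TPM. Bone markers were level, at 52.7 and 54.0 TPM. Cranial mesenchyme markers summed to 745 and 771 TPM but moved in both directions. Alx1 had 91.9 and 134 TPM and Twist1 65.8 and 70.8 TPM. Prrx1 (154 and 148 TPM), Pdgfra (96.6 and 93.2 TPM) and Msx1 (336 and 325 TPM) were slightly lower in replicate 2. The part of these markers in the differences of Lox, P3h2 and Pcolce2 was not tested. The authors' posterior SD of the count was mostly small at the gene level. It was 0 in both libraries for 30 members, and over 1% of the count in a library for 2, P3h2 and Loxl2. Loxl4, with 22 and 41 counts, was among the 30, so this SD does not cover counting error. For single transcripts it could be large, such as 121 of 498 counts for P4ha2-202 in replicate 1.

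Other genes of the same route give the setting for these levels. Of 11 fibrillar collagens, 10 reached 1 TPM in both libraries, with a median of 66.6 TPM. Col3a1 and Col1a2 (508 and 560 TPM) were the highest, and Col5a3 (0.89 and 0.99 TPM) and Col24a1 (2.92 and 3.75 TPM) the lowest. Summed, the fibrillar collagens came to 2512 and 2600 TPM. Of 18 other ER folding factors, 15 reached 10 TPM, with Calr (760 and 777 TPM) and Hspa5 (722 and 730 TPM) highest and Ero1lb (3.31 and 3.43 TPM) and Tmem38b (6.52 and 7.02 TPM) lowest. Per length, Serpinh1 thus stood above the general ER chaperones calreticulin and BiP, the products of Calr and Hspa5.

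Among 19 other COPII and export genes the median was 61.5 TPM, with Tmed2 (364 and 386 TPM) and Stx5a (142 and 136 TPM) at the top and Sec31b (0.13 and 0.32 TPM) and Sec16b (1.39 and 1.75 TPM) at the bottom. The outer-cage gene Sec31a was thus the abundant one of its pair. Of 11 other ER stress transducers and proteases, Xbp1 (133 and 125 TPM) and Mbtps1 (111 and 114 TPM), the site-1 protease that cleaves factors of the Creb3 family, were highest. Creb3l3 (0.57 and 0.26 TPM) and Ern1 (5.30 and 6.66 TPM) were lowest. Of 11 other propeptide and cross-linking genes, Fn1 (197 and 192 TPM) and Lum (148 and 181 TPM) were highest, while Mep1a (0.08 and 0.01 TPM) and Mep1b (0 in both) were lowest. The median of that list, 6.91 TPM, was close to the 6.32 TPM of the propeptide cleavage members.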

How the data were processed

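RNA-seq libraries of 2 replicates of 1 group were analysed, with replicate numbers taken from the labels. Per the notes deposited with the tables, alignment was to mm10 and GENCODE M4 was the annotation. Neither an aligner nor a quantifier is given in the sources used here, nor is strandedness. Per its title, the series was later replaced by another. The authors deposited, per the file headers, expected counts (estimated reads per gene or transcript), TPM and FPKM with spike-ins inside the total, a posterior mean of the TPM, a posterior SD of the count (listed as a score here) and the percent of each gene's abundance per transcript.

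From these, Python 3.11.15 with pandas 2.3.3 computed the mean and SD of TPM, log2 ratios of TPM without a pseudocount (past the threshold when both libraries share the sign and the mean is over 1 in size) and transcript shares. Names, coordinates and exons came from GENCODE M21 (GRCm38). Shares of exon bases in common with other genes are of all M21 exons of a gene, not only of its deposited transcripts. Of the transcripts, 156 of 170 had the same length in M21 and 1 was not in it. A complete coding transcript is a protein-coding one that M21 does not mark as cut off at an end. The background was all protein-coding genes, or where stated those with enough counts or level. No test was set for 1 group of 2 libraries: ratios are given with their SD and were not tested against 0, and a difference between the libraries cannot be tested. The steps for log2 ratios, their threshold and the difference between libraries were tested on simulated gene pairs. The transcript, exon and promoter steps were not.

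The members, gene lists and rules were chosen with earlier results of these data known. All 41 members are named. Other genes named come only from the ratios, the marker lists, and the 2 highest and 2 lowest of each pathway list, with these exceptions. Overlapping genes, Fkbp9 and Fkbp11 were named after their values were seen. Ero1a, Ero1b and Ctage5 were matched by the symbols Ero1l, Ero1lb and Mia2. Alternatives tried were posterior mean TPM, FPKM, counts scaled to library size (CPM) but not divided by length, TPM without spike-ins, other pseudocounts and filters, edgeR 4.0.16 TMM and RLE scaling for the difference between libraries, each library left out, and, chosen after seeing the data, complete coding transcripts only. Protein sequences were not analysed here.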

Additional observations from a re-analysis of the deposited data

How the results depend on the processing

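The number of members at 10 or more in both libraries stayed between 31 and 35 under the settings tried. Their median level, 48.1 TPM, was 29.98 in FPKM, 70.3 in counts scaled to library size (CPM) and not divided by length, 51.9 TPM without spike-ins and 41.6 TPM with complete coding transcripts only (the last chosen after seeing the data). Leaving out a replicate gave 47.0 to 50.3 TPM. These scales differ by construction, and so do the ratios: in counts not divided by length, 17 ratios passed 1, 15 of them among the 20 of the report, and those of Fkbp7 over Fkbp14 and Mia3 over Mia2 reversed to -0.46 and -0.13. P3h1 over Crtap (-0.47), Pdia3 over Pdia4 (0.99) and Pdia4 over Pdia6 (-0.87) no longer passed there, and Sec24d over Sec24c (-1.02) and Lox over Loxl1 (1.36) did. Of the ratios under 1 in size, Sec13 over Sec31a (-0.53), Pcolce over Bmp1 (-0.82) and Sec23a over Sec23b (0.73) changed sign there. Moves over 1.5-fold on that scale also took P4ha1 over P4ha2 to 0.70, P4ha1 over P4ha3 to 2.66, Crtap over Ppib to -1.48, Sar1a over Sar1b to 2.52, Creb3l1 over Creb3l2 to -4.35, Pcolce over Pcolce2 to 3.11 and Adamts2 over Adamts3 to 0.070. With complete coding transcripts only, 20 passed, 18 of them shared and Mia3 over Mia2 reversed to -1.73. Sec13 over Sec31a passed at 1.44 there and Pdia3 over Pdia4 did not, at 0.70. Ratios under 1 in size that changed sign with complete coding transcripts were P3h3 over P3h4, Pdia3 over Pdia6, Sec23a over Sec23b and Adamts2 over Adamts3, as given in the report, and Plod1 over Plod2 (0.039). Adding 1 TPM took Adamts2 over Adamts14 to 2.02 and Adamts3 over Adamts14 to 1.38. Lox over Loxl1 passed without replicate 1 (1.17). The number of genes with a leading transcript, single-transcript genes included, was 36, and 34 by the posterior mean TPM (38 with either replicate left out). The percent of protein-coding genes past 1 between the libraries was 0.236 when all with 3 or more counts were taken. No member passed 1 under the scalings tried.

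No paired analysis was possible because there is 1 group. With 2 libraries, an SD is itself imprecise. Levels of genes with few counts, such as Loxl4 (whose leading transcript held 100% by TPM but 39.5% and 54.9% by the posterior mean), and shares of transcripts that overlap each other are the least certain, since reads are split by estimate.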
